A study of Mus musculus with 18 samples.

Results

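Corpus pre-pit cells are mouse stomach cells that the study placed between the dividing progenitors of the gastric isthmus and the mature mucous cells that line the pits and the surface of the acid-secreting corpus. They were taken as every cell of cluster 4 in the annotation of the corpus experiment, and they number 291 of the 3993 annotated cells of that experiment and of the 4484 annotated cells of the series. Their marker genes are Gkn2, which codes for a small secreted protein of the stomach surface, Muc5ac, the gel-forming mucin of surface mucus, Sctr, the secretin receptor, and Basp1, a membrane-associated protein that binds the actin cortex.

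All mice were wild-type C57BL/6J males of 10 weeks with no treatment or transgene in the labels. In the corpus experiment (dataset 2), gastric units were dissociated in 2 pools, K and T, each made from 3 mice by a different operator, and Hoechst33342(+), ToPro3(-) cells were sorted into 6 plates of 384 wells per pool. Single cells were read with Quartz-Seq2, which counts polyadenylated transcripts by unique molecular identifiers (UMIs), and cells with fewer than 2500 genes had been removed by the authors. Dataset 1 held corpus and antrum gastric units together, sorted as ToPro3(-) by the labels (the study's methods name propidium iodide as the dead cell stain of this dataset), in 2 pools of 3 mice (tube1 and tube2) with 3 plates each, and 46 of its cells belong to the cluster that the study named corpus pre-pit. The deposited annotation gives cluster numbers, and the cell type names are those of the study's methods. The mice of a pool cannot be separated, so n is 2 pools throughout, and the difference between pools K and T cannot be told apart from the operator. Every plate carried the same 384 barcodes; the 291 cells used 212 distinct barcodes, of which 66 recurred on more than 1 plate as different wells.

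Pit cells, also called surface mucous or foveolar cells, secrete a neutral mucus of Muc5ac with the trefoil factor Tff1 and the gastrokines Gkn1 and Gkn2, and they turn over within days from progenitors in the isthmus. Neck cells are the other mucous lineage of the gland, make Muc6, and lie below the isthmus. The annotation put 1285 cells in the isthmus clusters 3, 5, 6, 9 and 11, 121 in the mature pit cluster 13, 1247 in the neck clusters 0, 2, 7 and 12, 180 in the chief cluster 10 and 702 in the parietal clusters 1 and 8. Levels are given as CPM, the summed UMIs of a gene over all cells of a cluster in a pool, scaled to 1000000. The total used for scaling is the UMIs of the tested genes in that sum times edgeR's TMM factor. Levels thus depend on this scaling. For isthmus and neck the level is the mean over their clusters. Each fold change is a log2 ratio from edgeR's quasi-likelihood test with Benjamini-Hochberg adjustment over all genes tested, with an adjusted p under 0.05 read as a call. For isthmus and neck that ratio is taken against the mean of the clusters' log levels, so it is smaller than the ratio of the mean CPMs where 1 cluster carries a gene. Since the authors drew the clusters from these same counts, a call states that clusters differed by more than the spread between pools and is no independent test of the clusters.

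Pool K held 134 pre-pit cells, 6.87% of its annotated cells (exact binomial 95% interval 5.79 to 8.09), and pool T held 157, or 7.69% (6.57 to 8.93). By plate the share ran from 6.12% to 7.65% in pool K and from 6.16% to 10.98% in pool T, where 1 plate gave 38 of the 157 cells. The cells carried 10942 to 67308 UMIs each (median 32262) and a median of 6235 genes, and a median of 4.75% of their UMIs were mitochondrial. According to the deposited phase calls 255 of the 291 cells (87.6%) were in G1, 24 in S and 12 in G2M. No pre-pit cell exceeded 3 times the median UMI count and 1 had over 100 UMIs of the parietal genes Atp4a and Atp4b; no doublet caller was run. The plates of dataset 2 held 10540256 to 12850942 UMIs and those of dataset 1 held 3054370 to 5346035. Over all 291 cells the 5 stromal markers summed to 1 UMI (Col1a1), and of the leukocyte markers Ptprc, Cd3e and Cd4 were at 0, while Cd68 was read 2 times in K and 20 times in T. The endothelial marker Plvap had 1 and 4. Endocrine hormones were detected at low counts, Ghrl (ghrelin) with 133 UMIs in 50 cells of pool K and 275 in 68 cells of pool T, Sst (somatostatin) with 63 and 68 and Chga with 42 and 93. The part of these markers in the results was not tested.

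**Figure D1:**
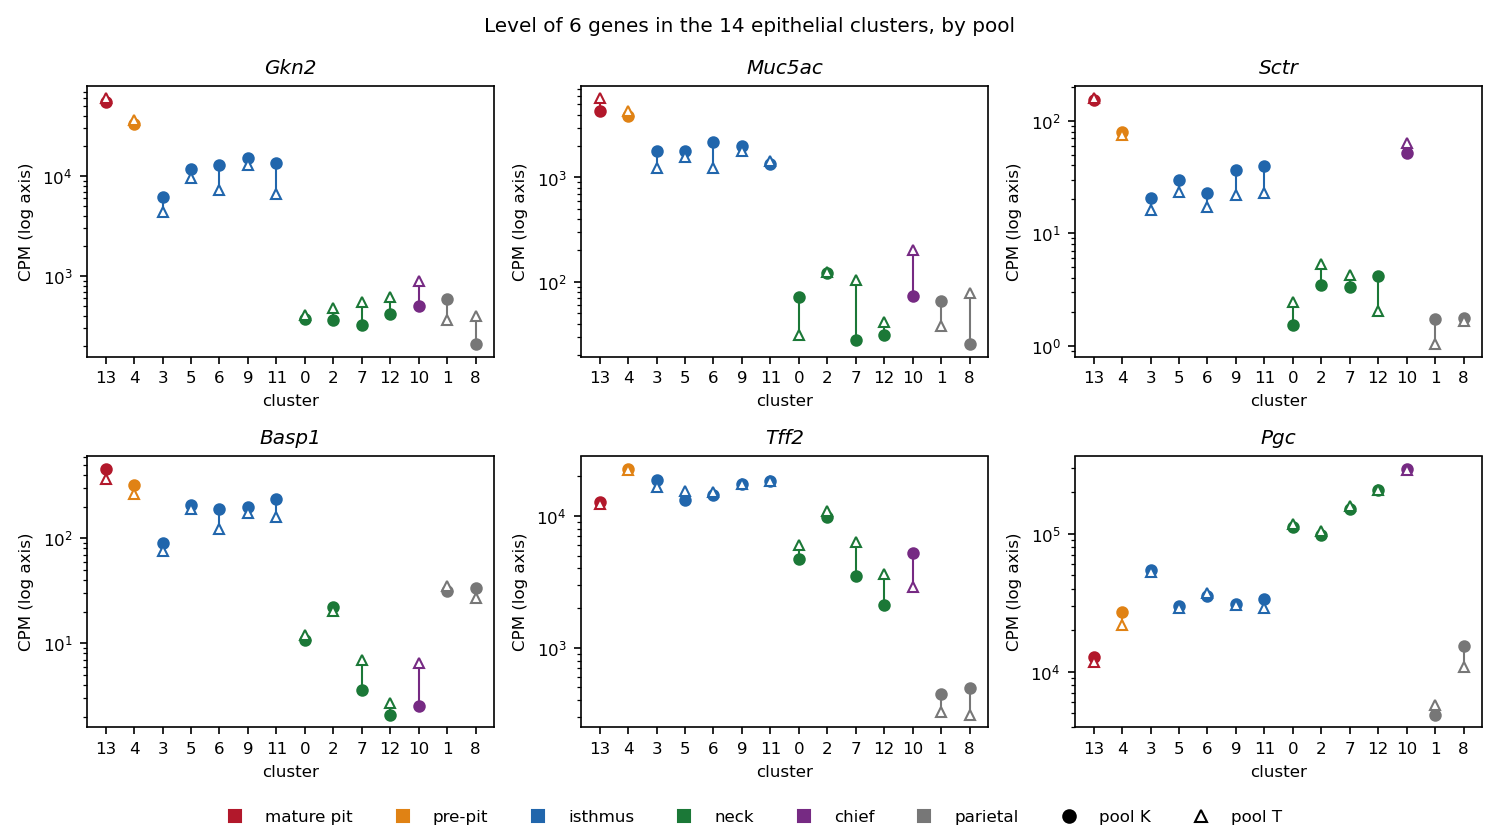
Level of Gkn2, Muc5ac, Sctr, Basp1, Tff2 and Pgc in CPM (log axis) in each of the 14 epithelial clusters; each point is 1 pool (filled circle K, open triangle T). The 4 pit markers sit in cluster 4 between the isthmus clusters and mature pit cluster 13. With TMM scaling Tff2 is highest in cluster 4 (22800 and 22440 CPM), and Pgc is above mature pit and below the isthmus.

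All 4 markers stood where the label puts them, above every isthmus and neck cluster in both pools. Gkn2 was at 33500 CPM in pool K and 36310 in pool T of the pre-pit cells, against 11960 and 8136 in the isthmus, 55260 and 60000 in mature pit cells and 370.1 and 515.5 in neck cells. The log2 change was 1.86 against the isthmus (SE 0.29, edgeR adjusted p = 0.000135) and 6.31 against the neck (edgeR adjusted p = 8.8e-11), while the value against mature pit, -0.72 (SE 0.43), was not called (edgeR adjusted p = 0.323). Muc5ac gave 3847 and 4342 CPM in pre-pit, 1822 and 1457 in isthmus, and 4365 and 5724 in mature pit cells. It was called higher than in isthmus (log2 change 1.33, SE 0.38, edgeR adjusted p = 0.013), a call lost without the pre-pit sum of either pool, and its difference from mature pit cells, -0.30 with an SE of 0.54, lay within the spread. Sctr was the one marker with steps on both sides: 79.3 and 75.1 CPM in pre-pit cells, 29.9 and 20.2 in isthmus cells, 152.2 and 158.1 in mature pit cells, with log2 changes of 1.68 (SE 0.15) and -1.01 (SE 0.19, edgeR adjusted p = 0.000749). Chief cells also held Sctr, at 51.2 and 63.5 CPM, between the isthmus and pre-pit values. Basp1 read 322 and 262.9 CPM against 184.4 and 144.5 in isthmus cells (0.90, edgeR adjusted p = 0.0002) and 458.5 and 367.8 in mature pit cells (-0.50, edgeR adjusted p = 0.134). With the pool as a block this difference was called (edgeR adjusted p = 0.0253).

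Within the pre-pit cells the markers were far from uniform. Gkn2 ranged from 1.53 to 902 UMIs per 10000 UMIs of the cell in pool K, with quartiles of 81.4 and 488 around a median of 329, and from 1.55 to 1016 in pool T around a median of 360. In pool K 123 of 134 cells and in pool T 152 of 157 lay above the isthmus median, while 25 and 24 lay above the median of mature pit cells of the same pool. The isthmus itself reached into the range, since 91 of its 567 cells in pool K (16.0%) and 53 of 718 in pool T (7.38%) exceeded the pre-pit median. A tail of pre-pit cells was low in Gkn2, with the lowest 10% at or under 9.66 (K) and 22.4 (T) per 10000 UMIs, and 130 of 134 and 154 of 157 cells lay above the neck median. Thinned to 10000 UMIs per cell, Sctr was detected in 38.1% of pre-pit cells in pool K and 42.7% in pool T (74.6% and 78.3% unthinned), against 66.0% and 65.7% of mature pit cells and 3.91% and 2.34% of neck cells, which should lack it. Median depth before thinning was 32262 UMIs in pre-pit, 43578 in mature pit and 22530 in neck cells.

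**Figure D2:**
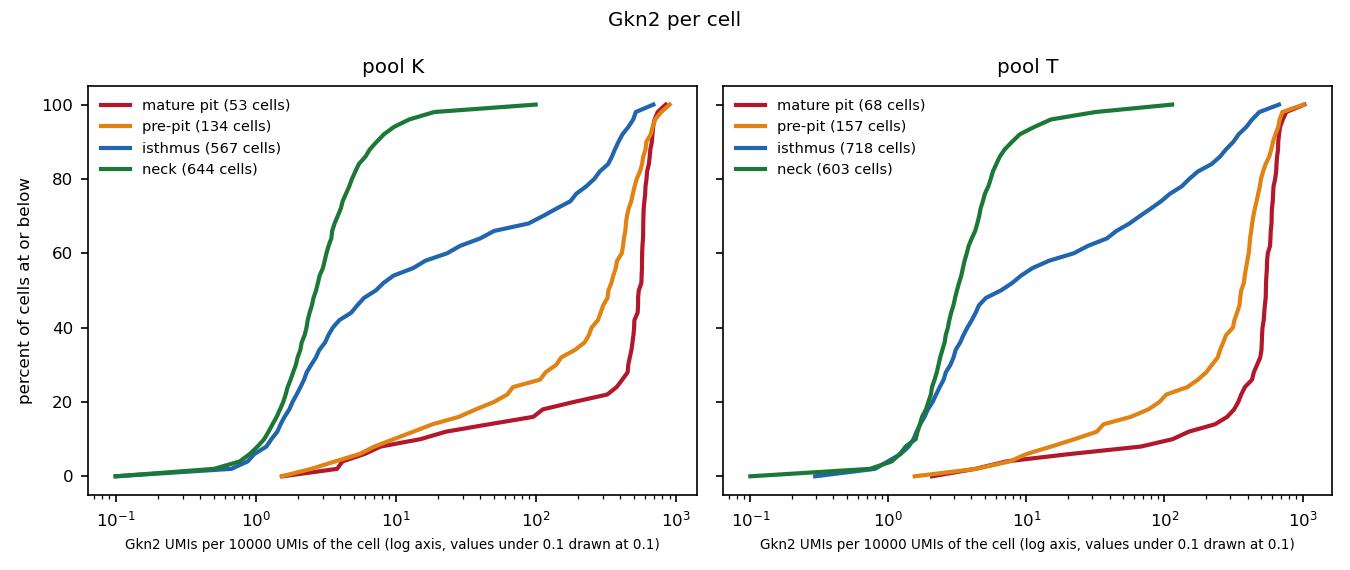
Cumulative distribution of Gkn2 per cell (x, UMIs per 10000 UMIs of the cell, log axis; y, percent of cells at or below) in mature pit, pre-pit, isthmus and neck cells, with pool K on the left and pool T on the right. Most pre-pit cells rise between the isthmus and mature pit curves, with medians of 329 and 360, and a lower tail of each curve reaches the neck range.

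Cells with more Gkn2 also held more of other pit products and less Tff2 and Pgc. Across the pre-pit cells of pool K and of pool T, Spearman's rho with Gkn2 was 0.977 and 0.979 for Gkn1, 0.873 and 0.869 for Tff1, 0.805 and 0.680 for Aldh3a1, an aldehyde dehydrogenase, and 0.686 and 0.727 for Gsta1, a glutathione transferase. It was weaker for Psca, a GPI-anchored surface protein (0.557 and 0.487), and for Muc5ac (0.314 and 0.316). Tff2, the trefoil factor of neck mucus (-0.701 and -0.585), and Pgc, pepsinogen C (-0.719 and -0.675), ran the other way. These values describe 134 and 157 cells that share plates and in which every gene is a share of one total, and the total UMIs of a cell had rho values of 0.303 and 0.192 with Gkn2.

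Pgc differed from both neighbours of the pre-pit cells, and Tff2 was at its highest TMM-scaled level in them. With 22800 and 22440 CPM, Tff2 was higher in pre-pit cells than in any other epithelial cluster in both pools, the next being isthmus cluster 11 at 18400 and 18320. The changes against isthmus (0.46, edgeR adjusted p = 0.158) and mature pit (0.85, edgeR adjusted p = 0.103) were not called, and that against the neck was (2.10, edgeR adjusted p = 1.3e-06). Pgc stood at 27100 and 21950 CPM, under the isthmus (37020 and 35720; -0.53, edgeR adjusted p = 0.000654), above mature pit cells (12820 and 11880; 0.99, edgeR adjusted p = 4.78e-05) and well under neck cells (-2.51). Muc6, the defining neck mucin, was at 24.9 and 17.6 CPM in pre-pit cells, 187.7 and 204.7 in isthmus cells and 1669 and 1858 in neck cells. The part of free RNA in these levels was not tested.

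The start regions of both gastrokine genes are shown because Gkn2 marks these cells and Gkn1 varied with it from cell to cell; AGATAA is a motif of zinc finger factors of the endoderm, and TATAAA is the box at which the core transcription machinery binds. Sequences are RefSeq windows of GRCm38.p6 from 250 bases before to 50 after the annotated start, on the coding strand; the counts themselves were made on GRCm39. For Gkn2 the window is chr6:87373115-87373414 (+), with TATAAA at base -29 and AGATAA at base -218 in capitals, and for Gkn1 it is chr6:87350866-87351165 (-), with AGATAA at base -82 in capitals.
Gkn2: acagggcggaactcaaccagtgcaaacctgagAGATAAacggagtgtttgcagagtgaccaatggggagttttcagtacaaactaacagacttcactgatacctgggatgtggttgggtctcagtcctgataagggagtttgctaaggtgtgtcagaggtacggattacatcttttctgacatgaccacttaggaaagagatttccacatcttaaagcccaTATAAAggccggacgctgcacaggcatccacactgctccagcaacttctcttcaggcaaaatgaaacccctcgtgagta
Gkn1: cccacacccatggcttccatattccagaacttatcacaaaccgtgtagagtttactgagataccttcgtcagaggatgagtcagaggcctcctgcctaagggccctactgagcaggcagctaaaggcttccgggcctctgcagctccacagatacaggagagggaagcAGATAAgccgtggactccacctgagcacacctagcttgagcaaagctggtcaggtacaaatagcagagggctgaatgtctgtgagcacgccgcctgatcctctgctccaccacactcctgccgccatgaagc
Searched on both strands, TATAAA was found in 13.6% and AGATAA in 11.2% of all 32851 windows, and each was in 2 of the 6 windows matched for the 12 pit secretory products. A match is a description of the letters and not of binding.

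Against the isthmus, the pre-pit cells held more of the secreted and surface products of pit cells and less of every mitotic gene tested. Of 12922 genes tested 4481 were called (34.7%), 2542 higher (19.7%) and 1939 lower (15.0%) in pre-pit cells. The balance depends on the scaling: 56.7% of the calls were higher with TMM, 49.7% with DESeq2's size factors, 44.0% without mitochondrial and the 20 most abundant genes, and 17.3% with library sizes alone, where the median of all genes lay at -0.188 instead of 0.0449. Without the pre-pit sum of pool T 2422 genes were called. All 10 tested members of the pit secretory list (12 genes) rose, with a median log2 change of 1.33 against 0.0449 over all genes. Gkn1 went from 11240 and 7598 CPM in isthmus cells to 30860 and 31880 (1.80, SE 0.31, edgeR adjusted p = 0.000311), Tff1 from 14320 and 12630 to 36290 and 42270 (1.56, edgeR adjusted p = 0.000932), and Psca from 1568 and 1363 to 3138 and 4093 (1.33, edgeR adjusted p = 4.79e-05). Lypd8l, a Ly6 family surface protein, rose from 95.2 and 87.4 to 162.2 and 376.5 CPM (1.70). Vsig1, a junctional adhesion protein of the stomach, rose by less (0.55), as did Muc1, a membrane mucin (0.33). Without the pre-pit sum of pool T 5 of the 10 were called, with neither Muc1 nor Lypd8l among them, and 5 were called without mitochondrial and the 20 most abundant genes. Muc1 was also lost without the pre-pit sum of pool K.

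Among the 10 largest rises from isthmus to pre-pit, beside the gastrokines, were genes of varied function. Rep15, a Rab15 effector, went from 5.96 and 4.51 CPM to 26.5 and 29.7 (log2 change 2.53, SE 0.19, edgeR adjusted p = 5.51e-12). Slc5a5, the sodium iodide symporter, went from 61.0 and 55.5 to 200.9 and 298.9 CPM (2.13, SE 0.20). Il33, an alarmin cytokine of barrier epithelia, went from 32.6 and 22.0 to 103.3 and 95.4 CPM (1.96, SE 0.25), and Fer1l6, a ferlin, from 8.66 and 7.35 to 25.6 and 31.1 (1.94). Aox3, an aldehyde oxidase (2.11), and Rnf186, a membrane ubiquitin ligase (1.81), followed. Pool values did not overlap between the pre-pit and isthmus sides for any of these genes. They were chosen as called genes with the same direction in both pools, so this adds no support to the calls. Shh, the hedgehog ligand, rose from 13.8 and 15.6 to 35.7 and 48.1 CPM (1.70, edgeR adjusted p = 2.86e-11).

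Transcription factors of the pit lineage were mixed. Of 24 listed and 23 tested, 4 were higher and 7 lower than in isthmus cluster 11 alone, with a median log2 change of -0.20. Against the isthmus as a whole 10 were higher and 6 lower, with a median of 0.15. Klf4, a zinc finger factor of differentiating epithelia, rose from 414.9 and 418.1 to 660.5 and 744.1 CPM (0.78, SE 0.06, edgeR adjusted p = 1.57e-11), Foxa3 from 48.5 and 49.6 to 75.6 and 86.95 (0.74), and Pparg, a lipid-sensing nuclear receptor, from 39.2 and 47.3 to 48.8 and 88.8 (0.68, edgeR adjusted p = 0.00788). Without the pre-pit sum of pool T 5 of these factors were higher and 3 lower, Pparg not among them, and library sizes alone turned the median to -0.08. The 22 progenitor transcription and chromatin factors went one way, with 16 called lower and a median of -1.45. Hmgb2, a chromatin protein of dividing cells, was at 23.9 and 33.5 CPM against 276.2 and 288.5 (-2.73, SE 0.10). Foxm1, the driver of mitotic gene expression, had 8 UMIs in all pre-pit cells against 2572 in isthmus cells, a rate 58.0-fold lower (counting interval 29.4 to 134.5). Tcf19 fell by 1.66 and Stmn1, a microtubule regulator, by 2.30 on the log2 scale, whereas the values of Cebpb (-0.63, edgeR adjusted p = 0.0591, and 0.00044 with the pool as a block) and Sox9 (-0.16, edgeR adjusted p = 0.157) were not called. In the comparison of G1 cells described next 5 of the 22 were lower (median -0.17), beside 4.2% of all genes tested there.

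Cell cycle genes separated pre-pit cells from the isthmus as a whole, with fewer calls against isthmus clusters 9 and 11 alone in G1. All 30 mitosis genes were lower (median log2 change -3.62), and 31 of 32 DNA replication genes were (median -1.55). Mki67, the proliferation antigen, was at 16.4 and 23.2 CPM against 216.4 and 213.4 (-2.61, SE 0.20), and Pcna, the replication clamp, at 71.8 and 81.3 against 250.4 and 245.2 (-1.13, SE 0.11). Bub1b, a spindle checkpoint kinase, had 2 UMIs against 4457, a rate 402-fold lower (counting interval 111 to 3321), and Clspn, a replication checkpoint protein, had 2 against 1513. With only G1 cells on both sides the isthmus side also changed, since clusters 3, 5 and 6 held no such cell, cluster 9 gave 6 and 13 cells (K and T) and cluster 11 gave 61 and 92. Of 12257 genes 1512 were then called in place of 4481, 4.2% of those tested being lower. Among them 6 mitosis genes and 1 replication gene were lower (list medians -0.98 and -0.33), and Pcna and Bub1b were no longer called. Phases were called from cell cycle scores of the same cells, so keeping G1 cells itself removes cells high in such genes. The loss of these calls is thus no separate result. Against cluster 11, whose cells were 85.5% G1 by the deposited calls, 1 mitosis and 4 replication genes were lower, and Mki67 stood at 12.9 and 29.3 CPM there, values that enclose both pre-pit values (-0.17, SE 0.29). Hmgb2 was lower than in cluster 11 (-0.48, edgeR adjusted p = 0.0175), a call lost without the pre-pit sum of pool K or the cluster 11 sum of pool T. Without the pre-pit or the cluster 11 sum of pool K 1 or 2 replication genes were lower.

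**Figure D3:**
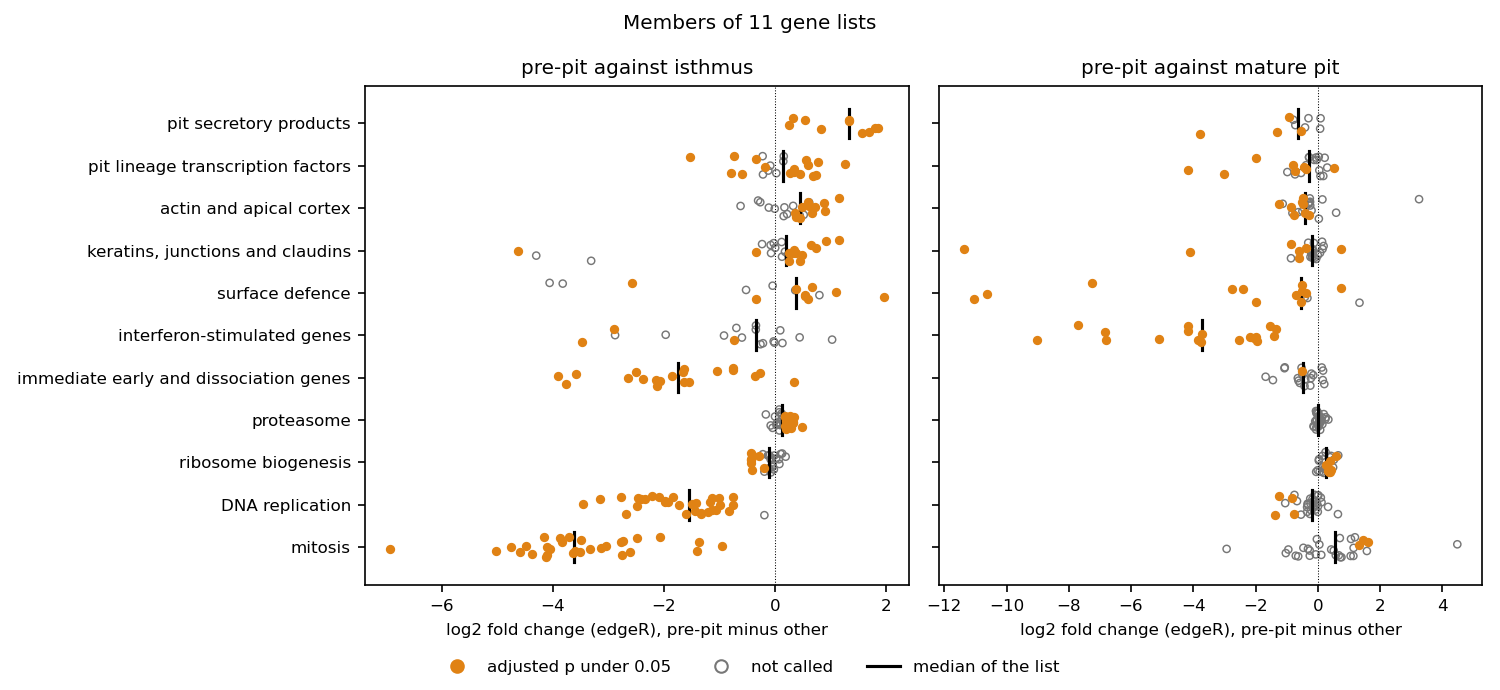
Log2 fold changes of the tested members of 11 gene lists (x; lists on y), for pre-pit against isthmus on the left and against mature pit on the right; filled points were called, open points were not, and the black bar is the median of the list. Mitosis, DNA replication and immediate early genes lie left of 0 against the isthmus (medians -3.62, -1.55 and -1.75), and interferon-stimulated genes lie left of 0 against mature pit (median -3.73).

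The start region of Bub1b is shown with that of its group because mitotic genes share letters there that the choice of the list did not use. Its GRCm38.p6 window, chr2:118597961-118598260 (+), has TTTGAA, the cell cycle homology motif, at base +40 and CCAAT read on the opposite strand at base -113, both in capitals.
Bub1b: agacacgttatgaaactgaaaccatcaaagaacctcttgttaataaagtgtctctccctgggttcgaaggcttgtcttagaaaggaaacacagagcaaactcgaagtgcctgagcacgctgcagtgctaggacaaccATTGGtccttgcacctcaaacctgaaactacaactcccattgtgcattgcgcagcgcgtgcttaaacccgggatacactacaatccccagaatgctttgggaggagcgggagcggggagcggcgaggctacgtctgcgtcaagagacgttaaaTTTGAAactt
Searched on both strands, TTTGAA was in 19 of the 25 mitosis windows matched (76.0%), in 4 of 26 DNA replication windows (15.4%) and in 17.9% of all windows. CCAAT was in 76.0% of the mitosis windows, 65.4% of the replication windows and 37.4% of all windows.

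Some EGF family genes were slightly higher in pre-pit cells than in the isthmus as a whole, and some feedback genes of the ERK pathway were lower. Of 13 EGF receptor and ligand genes 8 were tested. Against isthmus cluster 11 alone 0 of them were higher and 1 was lower (median 0.11). Against the isthmus as a whole 4 rose and 1 fell. Egfr was at 30.8 and 32.5 CPM against 25.2 and 22.5 in isthmus cells (0.43, SE 0.12, edgeR adjusted p = 0.00428), Erbb2 at 73.5 and 73.9 against 60.2 and 59.6 (0.31, edgeR adjusted p = 0.0028), and the ligand Tgfa at 39.9 and 46.9 against 32.01 and 28.01 (0.55, edgeR adjusted p = 0.000267). Btc read 39.9 and 37.1 against 31.1 and 34.5 and was not called (edgeR adjusted p = 0.0874). The ligand Hbegf, an immediate early gene itself, was lower, at 12.9 and 16.4 against 40.3 and 59.4 CPM (-1.67, edgeR adjusted p = 0.00395). Among 14 tested ERK feedback and target genes 7 were lower, with a median of -0.97, such as the phosphatase Dusp6 (9.86 and 8.82 against 20.8 and 22.6 CPM; -1.18), the antagonist Spry1 (-1.11) and the factor Etv4 (-1.35). The receptor and ligand calls are thin: without the pre-pit sum of pool K 2 genes were higher (Erbb2 and Hbegf lost their calls), without that of pool T none of the 4 was, and with library sizes alone 1 was. Without the sum of pool T 4 ERK feedback genes were lower and Etv4 was not called.

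Most immediate early genes were lower in pre-pit cells. Of the 20 genes of the immediate early and dissociation list 19 were lower than in the isthmus (median -1.75), and 15 were lower than in cluster 11 (median -2.80). Fos was at 236.1 and 267.1 CPM in pre-pit cells, 1097 and 1316 in the isthmus and 2608 and 2145 in cluster 11, and Atf3 at 20.2 and 28.5, 356.9 and 498.5, and 1093 and 875.4. For both genes every isthmus and cluster 11 value lay above both pre-pit values, though the share of all genes without overlap is not given. Without the pre-pit sum of pool K 12 genes of the list were lower than in the isthmus. These genes respond to tissue dissociation as well as to growth factors, and the part of dissociation was not tested. Hbegf (-2.58) and Dusp6 (-1.83) were lower than in cluster 11 as well, and 7 of 19 tested TNF receptor and NF-kB genes were lower (4 without the cluster 11 sum of pool K).

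In all, 2023 genes were called against cluster 11 (15.7% of those tested), 1166 higher (9.02%) and 857 lower (6.63%), the balance moving from 57.6% higher with TMM to 46.4% with DESeq2's size factors and 10.3% with library sizes alone. In the same comparison 7 of the 10 tested pit secretory products were higher than in cluster 11 (median 1.45), Gkn2 by 1.79 (edgeR adjusted p = 0.0126) and Psca by 1.60, but not Muc5ac (1340 and 1437 CPM there; 1.56, edgeR adjusted p = 0.0696, and 0.0445 with the pool as a block). Slc5a5 (2.32), Rep15 (1.86) and Fer1l6 (2.37) were again among the largest rises. Krt20, a keratin that the study names as an antrum pit marker, had no UMI in pre-pit cells and 215 in cluster 11. By the limit that a count of 0 allows (3 UMIs over both pools), it was at least 109.5-fold lower. Over all isthmus clusters 6 of 567 cells in pool K and 9 of 718 in pool T held a Krt20 UMI, so few cells carried these counts. These calls rest on few sums. Leaving out 1 sum left 705 calls (pre-pit pool T), 1150 (cluster 11 pool K) or 1151 (cluster 11 pool T), with 1, 3 and 2 pit secretory products higher, and 4 were without the pre-pit sum of pool K. Gkn2 was not called without the sum of pool T of either side, and Krt20 was not without either pre-pit sum or the cluster 11 sum of pool K.

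All values of this paragraph are against the isthmus as a whole and not against cluster 11. In that comparison with the whole isthmus, 19.7% of all genes tested were higher and 15.0% lower. Among actin-related genes, all 8 subunits of the ARP2/3 complex, which nucleates branched actin, were higher than in the isthmus (median 0.40). Arpc2, for example, was at 563.3 and 672.6 CPM against 458.8 and 461.1 (0.44, SE 0.07, edgeR adjusted p = 2.36e-05). Of 24 tested genes of the actin cortex 12 were higher. Without the pre-pit sum of pool T 3 subunits were called and Arpc2 was not, and with library sizes alone 4 were. The peptide and hormone receptors Hrh2, for histamine (24.4 and 26.3 against 11.5 and 10.9 CPM; 1.35), and Sstr2, for somatostatin (14.8 and 18.2 against 9.39 and 7.83; 1.01), were also higher, and Glp1r was lower (24.2 and 29.7 against 104.2 and 87.1; -1.65); 4 of 11 tested receptors rose and 2 fell. Of 23 tested genes of mucin glycosylation and secretion 10 were higher and 7 lower, Creb3l1, a secretory pathway factor chosen after its values were seen, among the latter (206.3 and 208.8 against 295.6 and 304.1 CPM; -0.52). That list gave 6 higher and 5 lower without the pre-pit sum of pool K and 5 and 2 without that of pool T, and library sizes alone gave 3 higher and 7 lower.

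Against mature pit cells, the median of the interferon-stimulated genes lay further from 0 than that of any other of the 29 lists compared. In all 1717 genes were called (13.3%), 605 higher (4.68%) and 1112 lower (8.61%) in pre-pit cells; the higher share was 35.2% of the calls and 68.2% with library sizes alone, where the median of all genes was 0.162 instead of 0.00436. Without 1 sum the count was 943 (pre-pit pool K) or 653 (mature pit pool T). All 18 tested interferon-stimulated genes of 20 listed were lower, with a median of -3.73. Isg15, a ubiquitin-like modifier, was at 1.64 and 1.00 CPM in pre-pit and 147.1 and 152.4 in mature pit cells (12 against 662 UMIs, a rate 103.6-fold lower, counting interval 58.9 to 201.6). Ifit1, which binds viral RNA, had 1 UMI against 301, and Usp18, the deconjugase of Isg15, had 1 against 123. Irf7, the factor that amplifies the response, was at 6.10 and 6.41 CPM against 120.2 and 108.5 (-4.18, SE 0.24, edgeR adjusted p = 2.23e-13), and Oasl2 at 6.34 and 9.82 against 139 and 159.3 (-4.19). Bst2, a tetherin that holds virions at the cell surface, was at 24.2 and 23.6 CPM against 118.2 and 101.6 (-2.19). Pool values of these genes did not overlap between pre-pit and mature pit cells. All are called members of the list, and the share of all genes without overlap is not given, so this adds no support.

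**Figure D4:**
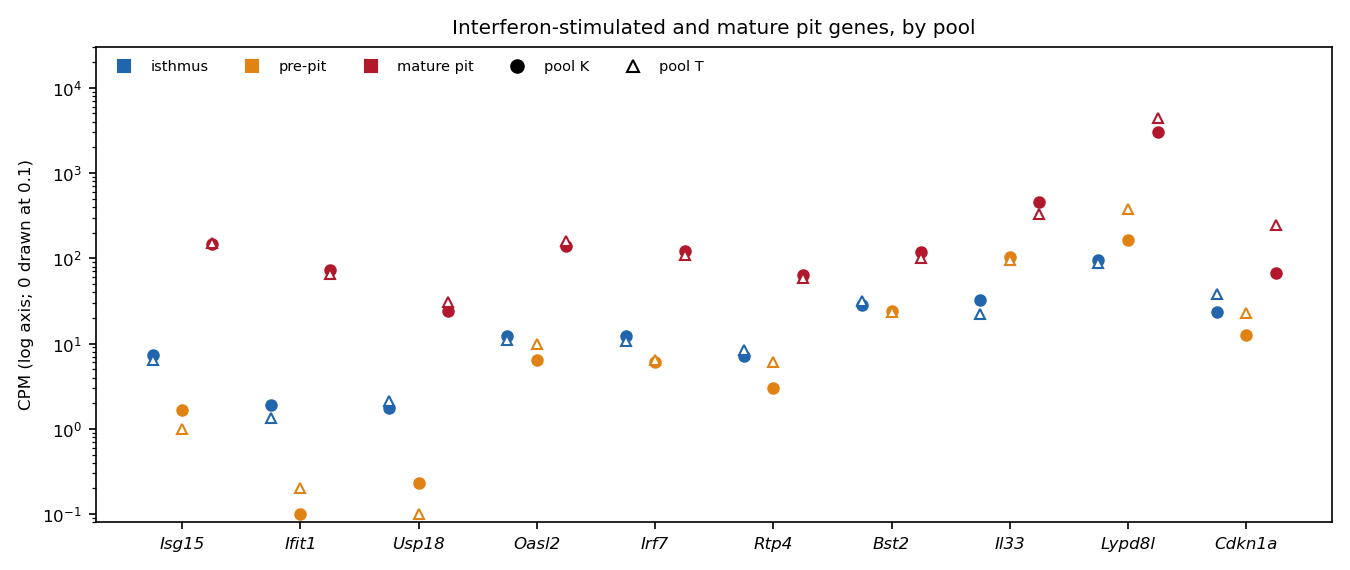
Levels in CPM (log axis, 0 drawn at 0.1) of 7 interferon-stimulated genes and of Il33, Lypd8l and Cdkn1a in isthmus, pre-pit and mature pit cells, filled circles for pool K and open triangles for pool T. The interferon-stimulated genes are high in mature pit cells in both pools (Isg15 at 147.1 and 152.4 CPM) and low in pre-pit cells (1.64 and 1.00), while Il33 steps up from isthmus to pre-pit to mature pit.

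The start region of Isg15 is printed for the interferon-stimulated response element, searched on both strands as TTTC followed, after 2 bases of any kind, by TTTC. Its GRCm38.p6 window is chr4:156200769-156201068 (-); the capitals mark 3 overlapping matches, at bases -78, -72 and -66, all read on the opposite strand.
Isg15: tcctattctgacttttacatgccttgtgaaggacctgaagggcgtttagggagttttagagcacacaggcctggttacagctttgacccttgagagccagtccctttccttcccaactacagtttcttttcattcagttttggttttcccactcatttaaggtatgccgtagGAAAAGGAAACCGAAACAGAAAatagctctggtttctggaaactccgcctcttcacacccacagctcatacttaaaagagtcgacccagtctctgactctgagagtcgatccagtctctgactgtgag
The element was in 7 of 14 windows matched for the interferon-stimulated genes, 2 of 25 for mitosis genes and 3.44% of all windows.

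Most of the tested defence genes of the surface were lower too. Of 15 tested (23 listed) 11 were lower and 1 higher, with a median of -0.55; 4 were lower without the pre-pit sum of pool K or without the mature pit sum of pool T. Duox2, the hydrogen peroxide generating oxidase of mucosal surfaces, had no UMI in pre-pit cells and 239 in mature pit cells (36.5 and 68.4 CPM), at least 149.6-fold lower. Lgals3, a secreted lectin, was at 14.8 and 27.5 against 56.8 and 164.2 CPM (-2.39), and Il33 at 103.3 and 95.4 against 459.6 and 330.5 (-1.99). Gpx2, a glutathione peroxidase, was the one that rose (291.5 and 338.2 against 193.3 and 185.5 CPM; 0.73, edgeR adjusted p = 0.00016). The mature pit marker Aqp3, a water and glycerol channel, was at 1.41 and 4.01 CPM against 10.7 and 90.5, a call lost without the mature pit sum of pool T. Krt20 had no UMI against 3.04 and 129 CPM, held by 1 of 53 mature pit cells in pool K and 13 of 68 in pool T. The study describes both corpus pit clusters as lacking Krt20.

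Some pit products were higher again in mature pit cells. Of the 10 tested pit secretory products 4 were lower in pre-pit than in mature pit cells, and the other six, with Gkn2, Gkn1, Tff1 and Muc5ac among them, were not called. Lypd8l differed most, at 162.2 and 376.5 CPM against 3020 and 4359 (-3.77, SE 0.43, edgeR adjusted p = 2.6e-05), with its neighbour in name Lypd8 at 60.1 and 59.1 against 1192 and 2349 (-4.89). Reads of this pair of related genes may have been split between them. Psca (7775 and 10150 CPM in mature pit cells; -1.31, edgeR adjusted p = 0.00379), Ctse, cathepsin E (-0.94), and Muc1 (-0.55) were the other 3. Shh was at 185.7 and 176.5 CPM in mature pit cells (-2.10, SE 0.16). Among transcription factors Tcf23 was at 3.99 and 4.61 CPM against 24.9 and 45.1 (-3.02), Foxa3 at -0.75, Pparg at -0.81 and Klf4 at -0.40 (880.6 and 967.8 CPM; edgeR adjusted p = 0.0013); 7 of 23 tested factors of the list were lower and 1 higher. The ligand Areg was at 5.63 and 15.6 CPM against 30.4 and 107.3 (-2.69, edgeR adjusted p = 0.0192), and Tgfa at -0.76. Without the pre-pit sum of pool K, and equally without the mature pit sum of pool T, 1 pit secretory product was lower, and Psca, Ctse, Muc1, Pparg, Klf4 and Areg were not called.

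Other genes were higher in pre-pit than in mature pit cells. Trim46 (25.4 and 22.6 against 3.04 and 5.73 CPM; 2.4, SE 0.32), Tspan33, a tetraspanin (81.2 and 55.3 against 21.3 and 14.3; 1.95), Gstm3, a glutathione transferase (78.4 and 69.9 against 21.8 and 25.4; 1.64), and Emp1, an epithelial membrane protein (352.1 and 289.9 against 111.6 and 98.3; 1.61), were among the 10 with the highest log2 change. Of 27 tested ribosome biogenesis genes 7 were higher (median 0.27), 4 without the pre-pit sum of pool K and 3 without the mature pit sum of pool T. Mki67 read 16.4 and 23.2 CPM against 9.13 and 9.01 and was not called (1.14, edgeR adjusted p = 0.0738).

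**Figure D5:**
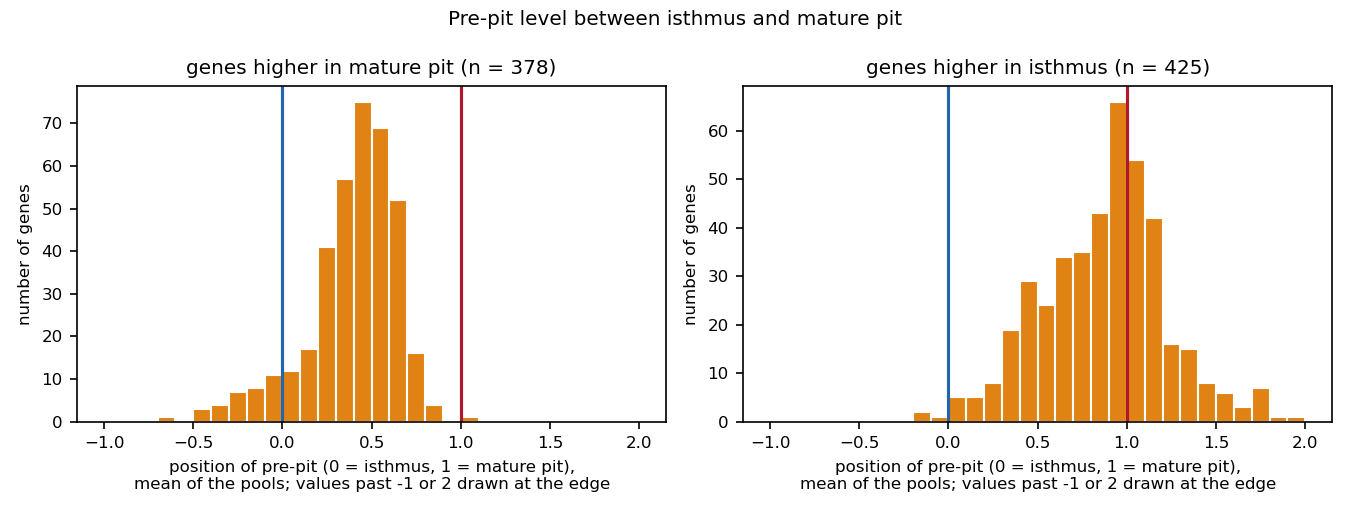
Position of the pre-pit level of each gene on the log2 scale between isthmus (0) and mature pit (1), as the mean of both pools, for 378 genes whose mature pit level was 2 or more times the isthmus level in both pools (left) and 425 with the reverse ratio (right); y, number of genes. Genes of mature pit cells centre near the middle (medians 0.409 and 0.462 in pools K and T) and genes of the isthmus near mature pit (0.921 and 0.867).

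Placed between both neighbours gene by gene, pre-pit cells lay near mature pit cells for genes of the isthmus and near the middle for genes of mature pit cells. Taking 378 genes with a mature pit level 2 or more times the isthmus level in both pools, 332 (87.8%) lay between them in pre-pit cells in both pools, at a median of 0.409 of the log2 distance in pool K and 0.462 in pool T. Taking 425 genes with the reverse ratio, 213 (50.1%) lay between in both pools and 91 lay below the mature pit level in both, at medians of 0.921 and 0.867. The choice of genes uses isthmus and mature pit levels only, and these positions are given with no test. By the deposited calls 13.4% of isthmus cells were in G1, against 87.6% of pre-pit and 87.6% of mature pit cells. The part of cell cycle genes in these positions was not tested.

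Some genes were higher in pre-pit cells than in every other epithelial cluster. These are the genes at 20 CPM or more whose level in cluster 4 exceeded that in each of the other epithelial clusters in both pools, most by little. Gsdmc4, a gasdermin, had the largest ratio to the next cluster, 1.75 (53.5 and 43.1 CPM against 20.8 and 34.4 in mature pit cells), followed by Lipe, hormone-sensitive lipase (1.47), Aadac, an esterase (1.37), and Aox3 (1.33). Xenobiotic and metal handling genes were among the first 10 with Gstm1 (1861 and 1909 CPM, ratio 1.29), the aldo-keto reductase Akr1c14 (1018 and 911.8, ratio 1.29) and the metallothionein Mt2 (1717 and 2563, ratio 1.29). For Mt2 the next cluster, 9, had 1329 and 1990 CPM, so pool values overlapped. The leads over the next cluster were not tested. They are leads of TMM-scaled levels, and how this set of genes changes with the scaling was not tested. Against the isthmus, the median log2 change of all genes was 0.0449 with TMM and -0.188 with library sizes alone. Gasdermin C, Gstm and Akr1c genes have close paralogs, so their counts are uncertain where reads were shared. Ribosomal protein symbols, a family chosen after its values were seen, numbered 52, or 32.1% of the genes highest in cluster 4. Their largest ratio to the next cluster was 1.26 (Rpl17). Of all 12922 genes tested, with no floor of 20 CPM, 1.07% were such symbols. By the same rule the other clusters had from 42 to 1338 genes, 6 of them fewer than cluster 4 and 7 of them more.

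Against the neck, the other mucous lineage, 6739 genes were called (52.2%), 3687 higher (28.5%) and 3052 lower (23.6%), with 54.7% of the calls higher by TMM and 39.1% by library sizes alone. Of 10 tested pit secretory products 9 were higher (median 4.18). Gm3776, a predicted glutathione transferase, rose most (155.9 and 170.1 against 1.07 and 1.53 CPM; 8.22), then the gasdermin Gsdmc2 (127 and 131.6 against 3.56 and 0.938; 7.25) and Tnni2, a troponin (52.8 and 55.5 against 0.965 and 0.977; 7.04). Aldh3a1 (945.5 and 1058 against 8.50 and 17.1 CPM; 6.61) and Gsta1 (1753 and 2252 against 26.1 and 33.7; 6.44) belong with the detoxifying enzymes. All 31 proteasome genes were higher (median 0.59), as were 23 of 27 tested ribosome biogenesis genes (median 0.60). Of 11 tested chief cell products 9 were lower (median -3.53), such as Cblif, intrinsic factor (22.3 and 24.2 against 2458 and 3112 CPM; -5.00). The largest fall was in Fxyd6, a sodium pump regulator, with 1 UMI in pre-pit cells against 1282 in neck cells.

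The pools differed in few genes, tested over 6 plates each, which are technical replicates. Of 7725 genes 188 (2.43%) were called, 109 higher (1.41%) and 79 lower (1.02%) in pool T. S100a6, a calcium-binding protein, showed the clearest gap, with plates at 170.4 to 296.4 CPM in pool K (median 214.9) and 484 to 759 in pool T (median 616.2), a log2 change of 1.51 (edgeR adjusted p = 0.000138). Tfrc, the transferrin receptor, ran from 282.8 to 419.4 in K and 516.9 to 799 in T, and Mal, an apical sorting protein, from 105.2 to 192.4 and 188.4 to 330.6. Col27a1, a collagen, went the other way (36.6 to 79.7 in K, 17.1 to 35.96 in T; -0.96). Of the markers, Gkn2 had plate medians of 33940 and 35850 CPM and was not called (edgeR adjusted p = 0.754), while Basp1 was lower in pool T (medians 317.9 and 251.8; -0.33, edgeR adjusted p = 0.00835).

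Dataset 1 allowed the same comparisons in other mice, with 46 pre-pit cells of cluster 2, 26 corpus mature pit cells and 53 cells of a dividing cluster, here called isthmus-like from Stmn1, Hmgb2 and Tcf19. Against the isthmus-like cells 2127 of 10229 genes were called (20.8%), 1024 higher (10%) and 1103 lower (10.8%). Gkn2 was at 38570 and 51040 CPM in tube1 and tube2 against 13740 and 12120 (1.79, SE 0.17, edgeR adjusted p = 7.27e-06), Sctr at 97.0 and 128.4 against 21.01 and 30.01 (2.09) and Rep15 at 106.2 and 134.3 against 16.6 and 12.5 (3.04); Basp1 was not called (255.7 and 260.4 against 94.9 and 164.5; edgeR adjusted p = 0.295). Of 11 tested pit secretory products 8 rose, all 30 mitosis genes fell (median -5.31) and 8 of 20 immediate early genes fell (median -1.66), the last count being 5 without the pre-pit sum of tube1, 3 without that of tube2 and 4 without the isthmus-like sum of tube2. Leaving out the same sums left 1247, 1314 and 1408 calls in all. The isthmus-like cluster was picked because it holds the dividing cells, so the fall of the mitosis genes follows from that choice and adds no support. Of the genes tested in both datasets, 880 rose in both, 36.3% of those called in dataset 2 and 85.9% of those called in dataset 1, and 889 fell in both (54.5% and 80.8%).

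Against mature pit cells of dataset 1, 1440 genes were called (14.1%), 660 higher (6.45%) and 780 lower (7.63%) in pre-pit cells. Psca (5570 and 6875 against 15750 and 11740 CPM; -1.14) and Rep15 (106.2 and 134.3 against 402.8 and 309.1; -1.59) were lower, and Duox2 was at 5.67 and 0 CPM against 235.2 and 58.4 (-5.37, edgeR adjusted p = 0.0114), a call lost without the pre-pit sum of tube1. Without the sum of tube1 567 (pre-pit) or 504 (mature pit) genes were called. Calls in both datasets numbered 508 among the lower genes (48.8% and 66.3%) and 254 among the higher (43.9% and 38.7%). Of the interferon-stimulated genes 9 were deep enough to test. By edgeR 0 were called, 0 had an unadjusted p under 0.05, and DESeq2 called 0 (median -0.55). Irf7 was at 2.83 and 3.50 CPM against 7.80 and 12.8 (-1.69, edgeR adjusted p = 0.249), where mature pit cells of dataset 2 had 120.2 and 108.5. Among DNA replication genes 14 of 31 tested were higher in pre-pit cells of dataset 1 (median 1.48), where dataset 2 had 4 of 32 lower (median -0.20), and of 27 tested ribosome biogenesis genes 18 were higher (median 1.00). Those 14 and 18 became 4 and 7 without the mature pit sum of tube1, and 5 replication genes were higher without the pre-pit sum of tube1. Hmgb2 was at 27.62 and 28.02 against 9.10 and 7.12 CPM (1.76, edgeR adjusted p = 0.00206). Whether these differences between datasets exceed the spread was not tested.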

How the data were processed

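The authors deposited a UMI count for every gene and well of each plate, with a table that gives kept cells a cluster, the percent of UMIs from mitochondrial genes that the authors computed, and the cell cycle scores from which the authors called each phase; per the labels the build was GRCm39 and reads were demultiplexed with bcl2fastq 2.20.0.422. Alignment with STAR, counting with Drop-seq tools and clustering with Seurat are described in the study's methods. The authors' exported tables of 4484 cell columns were not used. Deposited counts were summed per cluster and pool (28 sums in dataset 2) and fitted in R 4.3.3 with edgeR 4.0.16 (TMM, quasi-likelihood, 12922 genes); DESeq2 1.42.0 was an alternative. The difference between pools was fitted on plate sums. Fits were tested on simulated data. Position, shares and cells were computed in Python 3.11.15. Intervals and floors cover counting error only. Sums of the same pool come from the same mice; over 91 pairs of clusters their deviations correlated at a median of 0.149, 67 pairs being over 0.1. The text names the markers, genes the study names, the 10 top rises and falls per comparison at 20 CPM or more (5 for pools), the 10 genes highest in cluster 4, and up to 4 called members of a list with its most abundant member. Members, lists, motifs and rules were chosen with earlier results of these data known. The result of 1 gene of the interferon list is not reported here.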

Additional observations from a re-analysis of the deposited data

How the results depend on the processing

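Each value named here is a count of called genes. By DESeq2 the counts were 1290 against cluster 11 (2023 by edgeR), 112 between pools (188), 665 against mature pit cells of dataset 1 (1440) and 863 against its isthmus-like cells (2127). With only G1 cells, which leaves isthmus clusters 9 and 11, 1512 genes were called against the isthmus (4481). Leaving out 1 sum at a time, chosen as an alternative after seeing the data and with the lone sum assumed to vary like the other clusters, gave 2422 to 3124 against the isthmus, 705 to 1488 against cluster 11, 653 to 1516 against mature pit and 4811 to 5715 against neck cells, and 504 to 1362 and 1247 to 1710 in dataset 1. With a whole pool left out no residual spread remained and no test was made. With the replicate block (pool) the counts were 4969, 2668, 2165 and 7045 in dataset 2 and 1504 and 2185 in dataset 1, none over 1.5 times from the unblocked ones; the changed calls among the genes printed stand beside them. No direction of a called gene named in the text turned under the alternatives run. With 2 pools, few cells in mature pit and 46 cells in dataset 1, low genes are the least certain.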
